A study of Homo sapiens with 6 samples.

Results

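The mitochondrial ribosome translates the few messenger RNAs that mitochondrial DNA encodes, all of them for subunits of the oxidative phosphorylation complexes. Its proteins are encoded in the nucleus, made in the cytosol and imported, so the cell has to supply them in step with ribosomal RNA made inside the organelle. The 39S large subunit holds the peptidyl transferase centre, and the 28S small subunit reads the messenger RNA. Part of the proteins descend from those of bacterial ribosomes, and part are found only in mitochondria.

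All 77 genes whose symbol is MRPL or MRPS followed by a number were taken from the 15651 genes of the table, 48 of them MRPL genes, named for the large subunit, and 29 MRPS genes, named for the small subunit. Membership follows from the symbol. The RNA came from MDA-MB-231, an established human line of triple-negative breast cancer (TNBC), in 3 libraries from cells given DMSO, the solvent control, and 3 from cells given BRL-50481, an inhibitor of the cyclic AMP phosphodiesterase PDE7A. The protocol text gives 50 µM BRL-50481 for 72 h, whereas a treatment tag gives 5 µM for 48 h, and the labels state no gene alteration in either group. The comparison asks which transcripts differ when PDE7A is inhibited, and it rests on 1 cell line and 1 compound. The mesenchymal markers VIM, CD44, FN1 and AXL were abundant in every library. PGR stayed at 7.75 normalized counts or less, and ESR1 was not among the 15651 genes listed. ERBB2 (1606 to 1979 normalized counts) and EPCAM (674 to 773) were present. Most of these markers differed between the groups, as CDH1, an epithelial cadherin, went from 31.7 to 48.6 normalized counts with DMSO to 93.1 to 105 with BRL-50481 (log2 fold change 1.39, adjusted p = 4.28e-05 in limma). FN1 rose by 1.03, VIM by 0.58, CD44 by 0.47, ERBB2 by 0.19 and AXL by 0.12 on the log2 scale, and EPCAM changed by -0.16 (adjusted p = 0.0468, or 0.0556 with the replicate block). The libraries held 30750573 to 33446984 reads on genes. DMSO replicate 1 stood apart from the other DMSO libraries, and the chi-square over genes, divided by its degrees of freedom, was 20.9 and 13.0 against them, where the other DMSO pair gave 3.86 and pairs of BRL-50481 libraries 2.58 to 3.42.

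The stretch just before the RefSeq start site is shown for 7 members, to set side by side the letters that members with different responses carry there. They are MRPS12 and MRPS26, which had large falls, MRPL18, also lower, MRPL17 and MRPS10, the most abundant large and small subunit members by normalized count, and MRPL54 and MRPL40, which rose. All 7 hold a motif searched for, which is not so of every member. MRPS6, MRPS25, MRPL12 and MRPL34, which also had large falls, hold none in the 100 bases before the start. Each line gives the 100 bases before the start, 5′ to 3′ on the gene's strand, in RefSeq's build GRCh38.p14, with the motifs searched for in capitals. The positions are 19:38930844-38930943 (plus strand) for MRPS12, 20:3045952-3046051 (plus) for MRPS26, 6:159789712-159789811 (plus) for MRPL18, 11:6683341-6683440 (minus) for MRPL17, 6:42217862-42217961 (minus) for MRPS10, 19:3762582-3762681 (plus) for MRPL54 and 22:19432445-19432544 (plus) for MRPL40.
MRPS12: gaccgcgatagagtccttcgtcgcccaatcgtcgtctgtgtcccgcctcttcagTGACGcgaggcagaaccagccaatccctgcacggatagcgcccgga
MRPS26: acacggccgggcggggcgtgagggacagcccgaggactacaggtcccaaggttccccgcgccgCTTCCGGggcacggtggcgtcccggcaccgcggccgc
MRPL18: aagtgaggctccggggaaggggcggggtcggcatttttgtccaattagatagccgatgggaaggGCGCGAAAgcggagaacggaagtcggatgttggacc
MRPL17: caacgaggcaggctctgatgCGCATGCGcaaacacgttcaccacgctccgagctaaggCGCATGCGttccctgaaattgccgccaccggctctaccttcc
MRPS10: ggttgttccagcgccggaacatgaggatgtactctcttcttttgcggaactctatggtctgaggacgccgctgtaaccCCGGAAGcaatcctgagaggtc
MRPL54: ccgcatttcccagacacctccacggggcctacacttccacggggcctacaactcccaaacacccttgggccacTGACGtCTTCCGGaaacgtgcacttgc
MRPL40: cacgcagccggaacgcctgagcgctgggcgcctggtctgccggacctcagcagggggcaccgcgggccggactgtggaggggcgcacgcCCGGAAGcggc

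The capitals mark the core CCGGAAG bound by ETS factors such as GABP (GABPA and its partners), read on either strand, in MRPS26, MRPS10, MRPL54 and MRPL40. In MRPL17 they mark 2 copies of CGCATGCG, the core of the site of NRF1, a regulator of nuclear genes for mitochondria. In MRPS12 and MRPL54 they mark TGACG, the short form of the cyclic AMP response element bound by CREB, and in MRPL18 the E2F motif TTTCGCGC on the other strand. Promoters of 300 bases, from 250 before to 50 after the start, were given for 68 of the 77 members and for 10958 genes tested. The ETS core stood in 39.7% of member promoters and in 17.7% of all of them, and AAGATGGCG, a YY1 motif, in 19.1% and 3.65%. The first 3 letters of the YY1 motif are the last 3 of the ETS core, but in none of the 4 member promoters that hold both do they share bases. The full cyclic AMP response element TGACGTCA was in 0 member promoters and in 3.03% of all promoters, and its short form TGACG in 33.8% and 32.6%. The NRF1 core was in 4.41% of member promoters and 3.52% of all promoters, and the E-box CACGTG, the site of MYC and its partners, in 13.2% and 9.44%. Of the E2F motifs, TTTCGCGC was in 1.47% against 0.776% and TTTGGCGC in 2.94% against 1.07%. Members that fell and the other members carried the ETS core in 36.6% of 41 and 44.4% of 27 promoters, and the YY1 motif in 14.6% and 25.9%. These matches are letters in a window, counted without a test, and say nothing of binding.

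In cells treated with BRL-50481, 45 of the 77 mitochondrial ribosomal protein genes were lower than in DMSO, 2 were higher and 30 passed no threshold. Calls were made at 0.05 on p-values adjusted by the Benjamini-Hochberg method, from limma fitted to log2 of the normalized count with 1 added over all 15246 genes that passed a filter on low values, which all 77 members did. Of all genes tested, 29.8% were called lower and 28.9% higher, against 58.4% of the members called lower. The median log2 fold change of the members was -0.26, where that of all genes tested was 0.01. The falls were mostly moderate. Of the 45 genes, 2 fell by over 1 on the log2 scale, 18 by 0.5 to 1 and 25 by under 0.5. The share of all genes tested with falls of these sizes was not counted. Their log2 fold change had its 25th percentile at -0.304 and its 5th at -0.858. In 45 members all 3 BRL-50481 libraries were below all 3 DMSO libraries, which held for 32.3% of all genes tested, and in 4 members all were above, against 31.9%. Of the genes called lower, 44 had groups that stood apart in this way, and MRPS31 did not. Normalized counts are relative to the library, so fewer of these transcripts per cell and more of other transcripts cannot be told apart, nor can a change in the make-up of the culture. The part of the marker changes given above in the change of the members was not tested.

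**Figure D1:**
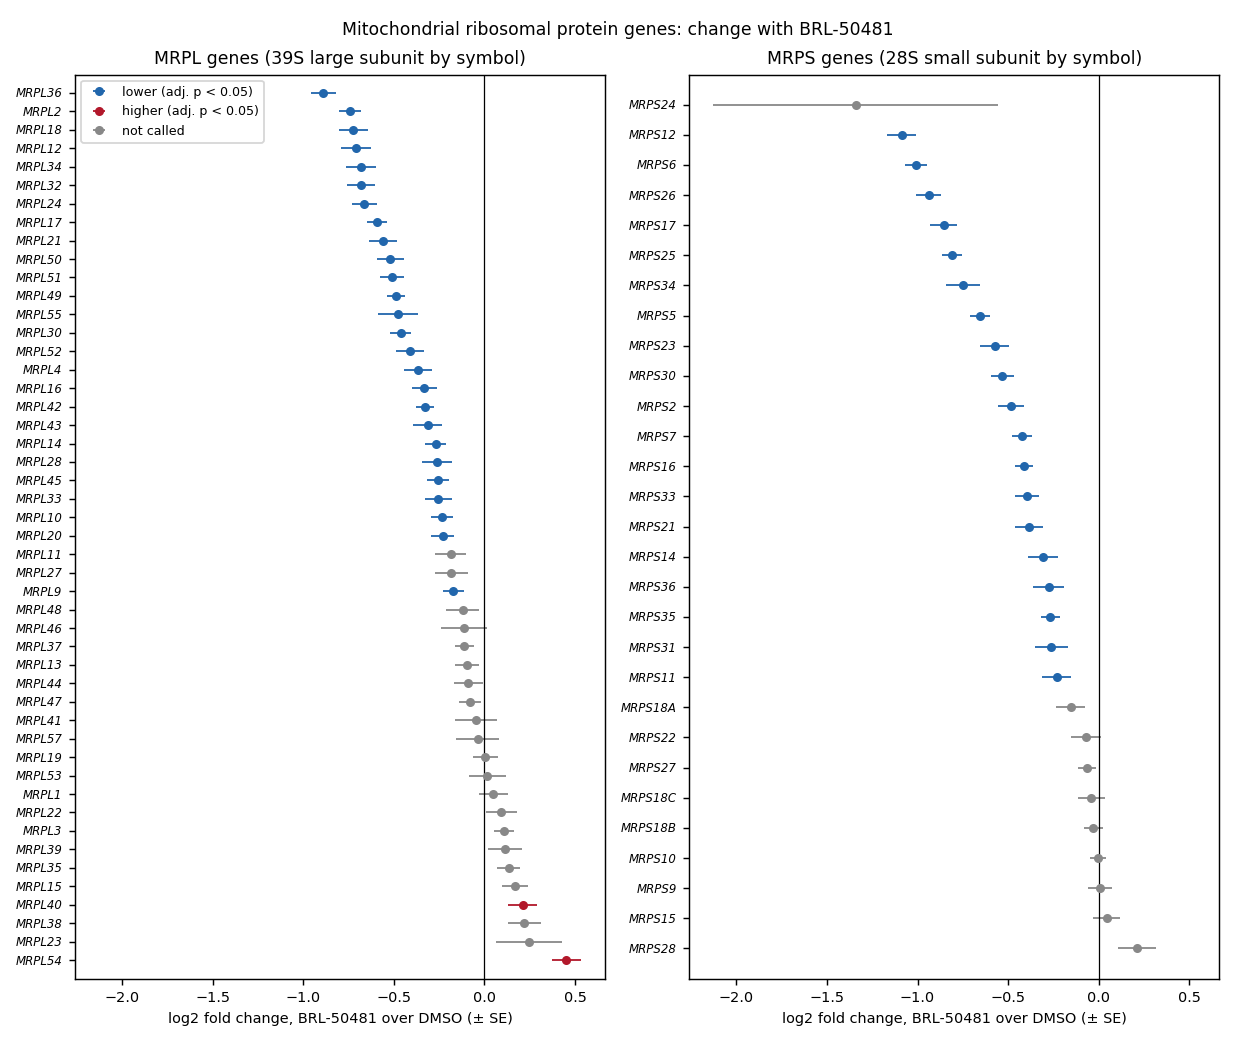
Log2 fold change of BRL-50481 over DMSO (horizontal axis) with its standard error for the 48 MRPL genes (left) and 29 MRPS genes (right), coloured by call. The falls run to -0.89 among MRPL genes and to -1.09 among MRPS genes called lower, the 2 red points are MRPL40 and MRPL54, and the wide bar at the top right is MRPS24, which had few reads.

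Both subunits shared in the decrease. Of the 48 MRPL genes, 26 (54.2%) were lower and 2 higher, and the median log2 fold change was -0.23. Of the 29 MRPS genes, 19 (65.5%) were lower and 0 higher in limma, and the median was -0.39. At an unadjusted p-value under 0.05 the count of MRPS genes higher was also 0, as it was by edgeR and by DESeq2. A fall of over 0.5 was called in 11 MRPL and 9 MRPS genes, and the share of all genes with such a fall was not counted. With the replicate number as a block in the fit, the MRPL genes higher numbered 4, with MRPL15 (log2 fold change 0.17, adjusted p = 0.0458 in the blocked limma fit) and MRPL38 (0.22, 0.0263) added. When a smooth dependence on GC content and transcript length was removed from each library, 46 members were lower and 8 higher, 6 of them MRPL and 2 MRPS genes. The median was then -0.16 for MRPL and -0.32 for MRPS genes. Leaving out each library in turn gave medians of -0.29 to -0.18 for MRPL and -0.43 to -0.33 for MRPS genes. Among genes averaging at least 20 normalized counts, which leaves out MRPS24, the MRPS median was -0.35. The summed normalized count of the MRPL genes was 73280, 84138 and 81602 in the DMSO libraries and 64379, 63099 and 65531 in the BRL-50481 libraries, so that the BRL-50481 mean was 80.8% of the DMSO mean. For the MRPS genes the sums were 53151, 58882 and 57856 in DMSO and 44096, 43210 and 43921 in BRL-50481, or 77.2%. Neither sum overlapped between the groups, and the sum of MRPL over that of MRPS genes averaged 1.41 ± 0.0254 with DMSO (SD, n = 3) and 1.47 ± 0.0184 with BRL-50481 (SD, n = 3). The difference between the subunits was not tested. All members together made up 0.417% of the normalized counts under DMSO and 0.349% in BRL-50481.

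The DMSO libraries did not agree closely on these genes. DMSO replicate 1 was the lowest DMSO library in 69 of the 77 members, where the same held for 41.6% of all genes tested. The median deviation of the members from their own mean was 0.01 in DMSO replicate 1, 0.22 in replicate 2 and 0.17 in replicate 3 on the log2 scale, and -0.13, -0.16 and -0.13 in the BRL-50481 libraries. For all genes tested it lay between 0.0048 and 0.0077 in every library. DMSO replicate 1 thus lay between the other DMSO libraries and the BRL-50481 libraries for the median member. Without it, 55 members were lower (34 MRPL and 21 MRPS) and 1 was higher, and leaving out each of the other libraries in turn left 39 to 43 lower and 2 to 4 higher. The share of all genes called was not counted in these fits, so the rise to 55 cannot be set against a background. Of the 45 genes called lower, 39 were called in every such fit. What sets DMSO replicate 1 apart was not tested.

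**Figure D2:**
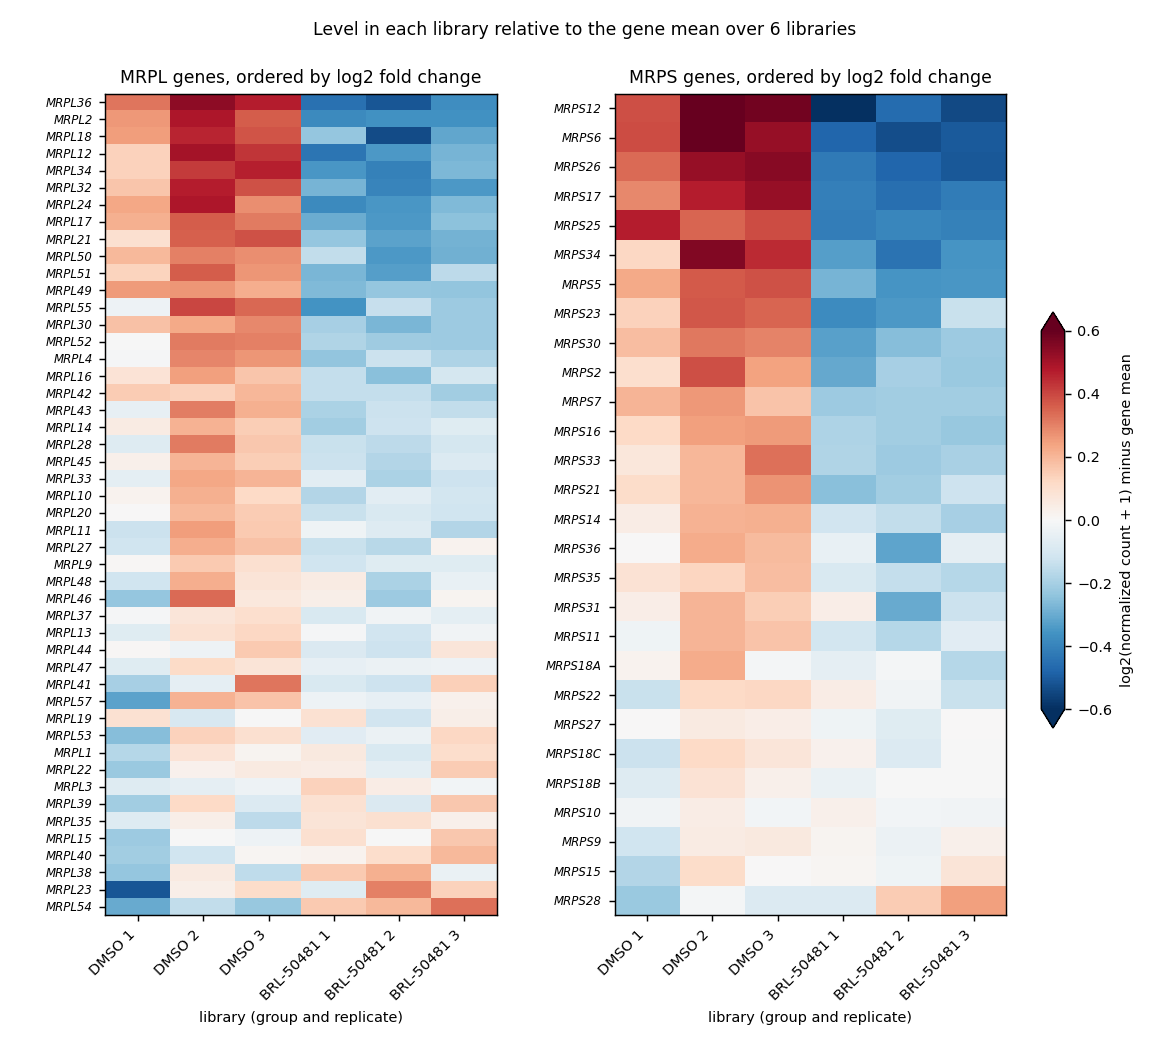
Log2(normalized count + 1) of each member minus its mean over the 6 libraries, as colour, with MRPL genes on the left and MRPS genes on the right, in order of log2 fold change. MRPS24 is left out because it had few reads. The upper rows are red in all 3 DMSO columns and blue in all 3 BRL-50481 columns, and the DMSO 1 column is paler than the other DMSO columns, at a median of 0.01 against 0.22 and 0.17.

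The small subunit held the largest falls. MRPS12 (uS12m in the unified nomenclature, chromosome 19, 38930944 to 38933168, hg38), the counterpart of the bacterial protein at the decoding site, had 1344, 1632 and 1539 normalized counts under DMSO and 665, 746 and 707 in BRL-50481. The lowest DMSO library was above the highest BRL-50481 library, and the mean fell to 46.9% of that in DMSO, or -1.09 as a log2 fold change (standard error 0.0793, adjusted p = 1.47e-07 in limma). MRPS6 (bS6m, chromosome 21, 34073224 to 34143034), of the platform of the subunit, had 2664, 3067 and 2917 normalized counts under DMSO and 1457, 1405 and 1430 in BRL-50481. Its mean fell by about as much, to 49.6% (log2 fold change -1.01, standard error 0.061, adjusted p = 3.29e-08 in limma), but exons of SLC5A3, a myo-inositol transporter gene, overlap it on the same strand, so reads of the pair may not be separable. MRPS26 (mS26, chromosome 20, 3046052 to 3048250), which has no bacterial counterpart, had 1670, 1895 and 1931 normalized counts under DMSO and 985, 950 and 928 in BRL-50481. These 3 genes were lower in BRL-50481 by a margin far wider than the spread within either group, and MRPS26 fell to 52.1% (log2 fold change -0.94, standard error 0.0678, adjusted p = 1.39e-07 in limma).

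MRPS17 (uS17m, a protein of the subunit body that binds ribosomal RNA, chromosome 7, 55951877 to 55956500) had 963, 1095 and 1134 normalized counts under DMSO and 593, 576 and 589 in BRL-50481 (log2 fold change -0.86, standard error 0.0751, adjusted p = 7.47e-07 in limma). Its exons overlap those of NIPSNAP2 on the same strand. MRPS25 (mS25, mitochondria-specific, chromosome 3, 15009611 to 15065339) had 2766, 2543 and 2616 normalized counts under DMSO and 1496, 1520 and 1503 in BRL-50481 (-0.81, standard error 0.0547, adjusted p = 8.06e-08 in limma). In MRPS25, unlike most members, DMSO replicate 1 was the highest DMSO library, and the groups stood as clearly apart. Exons of an unnamed long non-coding RNA gene overlap MRPS25 on the same strand. All 5 of these genes were called lower in all 6 fits with a library removed.

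**Figure D3:**
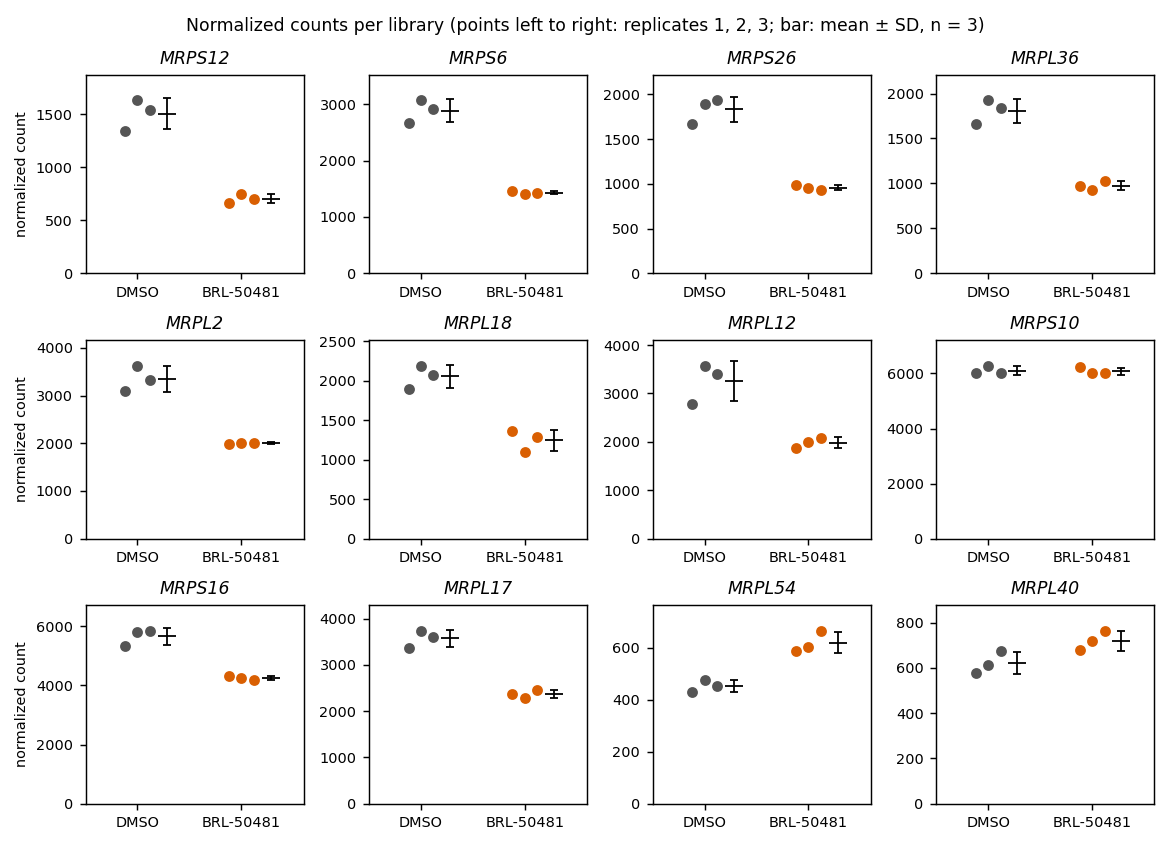
Normalized counts of 12 members in each library, with DMSO in grey and BRL-50481 in orange, points from left to right for replicates 1 to 3 and a bar for the mean ± SD (n = 3). MRPS12, MRPS6, MRPS26 and the MRPL genes from MRPL36 to MRPL12 are lower in all 3 BRL-50481 libraries, MRPS10 overlaps between the groups, and MRPL54 and MRPL40 are higher in all 3 BRL-50481 libraries.

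The most abundant small subunit transcripts by normalized count took different courses. MRPS10 (uS10m, a protein of the subunit head) had 6005, 6284 and 6032 normalized counts under DMSO and 6232, 6017 and 6006 in BRL-50481, and the groups overlapped (log2 fold change -0.01, standard error 0.0459, adjusted p = 0.933 in limma). MRPS16 (bS16m), required for assembly of the small subunit, fell from 5328, 5802 and 5840 to 4313, 4231 and 4187 (-0.41, adjusted p = 1.4e-05 in limma). MRPS5 (uS5m), at the channel through which messenger RNA enters, fell from 3623, 3987 and 4035 to 2550, 2416 and 2429 (-0.65, adjusted p = 6.26e-07 in limma). Exons of an unnamed gene overlap MRPS5 on the same strand. The values of MRPS10 thus overlapped between the groups, while those of MRPS16 and MRPS5 did not. Per kilobase of canonical transcript, MRPS10 had 2903 normalized counts as a mean over the 6 libraries, MRPS16 1919 and MRPS5 962.

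The other MRPS genes called lower were MRPS34, MRPS23, MRPS30, MRPS2, MRPS7, MRPS33, MRPS21, MRPS14, MRPS36, MRPS35, MRPS31 and MRPS11, with log2 fold changes from -0.75 (MRPS34) to -0.23 (MRPS11). Of these, MRPS31 and MRPS11 each kept their call in only 2 of the 6 fits with a library removed. MRPS22, MRPS27, MRPS9, MRPS15 and MRPS28 passed no threshold, with log2 fold changes from -0.07 in MRPS22 to 0.21 in MRPS28. MRPS28 was called higher without BRL-50481 replicate 1 (0.30, adjusted p = 0.0351 in limma), and MRPS22 lower without DMSO replicate 1 (-0.16, 0.0383). With the length and GC correction MRPS15 (0.12, adjusted p = 0.0354 in limma) and MRPS28 (0.27, 0.0175) were called higher. MRPS24, the counterpart of bacterial uS3, was near the lower limit of the measurement, at 1.98, 7.84 and 5.11 normalized counts under DMSO and 4.03, 0 and 0.969 in BRL-50481, and no difference was detectable at this depth. A readthrough gene, URGCP-MRPS24, shares its exons on the same strand. The next lowest MRPS gene, MRPS28, averaged 345 normalized counts.

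Some MRPS symbols do not follow the place of the protein in the ribosome. MRPS30 (mL65) and MRPS18A (mL66) sit in the large subunit. MRPS30 had 1471, 1611 and 1593 normalized counts under DMSO and 1032, 1086 and 1114 in BRL-50481, a log2 fold change of -0.53 (adjusted p = 9.98e-06 in limma). The human MRPS18 family has 3 members, of which MRPS18C (bS18m) and MRPS18B (mS40) belong to the small subunit. None was called lower. MRPS18A had 839, 968 and 821 normalized counts under DMSO and 798, 822 and 736 in BRL-50481 (-0.16, adjusted p = 0.11 in limma), and was called lower when DMSO replicate 1 was left out (-0.18, adjusted p = 0.025), whereas it was at -0.08 without DMSO replicate 2 (adjusted p = 0.387) and at -0.07 with the length and GC correction (0.389). MRPS18B had 2976 to 3334 under DMSO and 3051 to 3134 under BRL-50481 (-0.03, adjusted p = 0.668), and MRPS18C 869 to 1032 and 897 to 967 (-0.04, adjusted p = 0.671). MRPS36, now known as a subunit of the oxoglutarate dehydrogenase complex and not a ribosomal protein, had 951, 1109 and 1082 normalized counts under DMSO and 920, 762 and 915 in BRL-50481 (-0.28, adjusted p = 0.0147 in limma). Its call was lost without DMSO replicate 3 (adjusted p = 0.0559) or BRL-50481 replicate 2 (0.0918).

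Placed by structure, 50 members belong to the large subunit and 26 to the small subunit. Of the 50, 27 were lower and 2 higher (median log2 fold change -0.23), and of the 26, 17 were lower (-0.39), close to the counts by symbol. Members with a bacterial counterpart were lower in 29 of 46 cases (median -0.29) and higher in 0 by limma, or in 1, MRPL15, at an unadjusted p-value under 0.05 and with the replicate block. By edgeR and DESeq2 the number higher was also 0, but it was 2 with median centring (MRPL15 and MRPL35), 3 with quantile normalization (MRPL3 in addition) and 5 with the length and GC correction (MRPL3, MRPL15, MRPL23, MRPS15 and MRPS28). Leaving out a library gave 0 to 2, with 2 without DMSO replicate 2 (MRPL15 and MRPL35). Mitochondria-specific members were lower in 15 of 30 cases (median -0.21) and higher in 2. Within the large subunit, 19 of 30 members with a bacterial counterpart (median -0.26) and 8 of 20 mitochondria-specific members (-0.12) were lower, and within the small subunit 10 of 16 (-0.40) and 7 of 10 (-0.33). As shares these were 63.3% and 40.0% in the large subunit and 62.5% and 70.0% in the small subunit, against 29.8% of all genes tested. The differences between classes were not tested.

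Among the large subunit genes, MRPL36 (bL36m, a small protein near the factor binding site, chromosome 5, 1798385 to 1801366) fell most. It had 1656, 1923 and 1839 normalized counts under DMSO and 970, 928 and 1024 in BRL-50481, a mean at 53.9% of that in DMSO (log2 fold change -0.89, standard error 0.0696, adjusted p = 2.79e-07 in limma). MRPL2 (uL2m), which lies at the peptidyl transferase centre, had 3096, 3628 and 3333 normalized counts under DMSO and 1985, 2013 and 2010 in BRL-50481 (-0.74, adjusted p = 4.33e-07 in limma). The BRL-50481 libraries had an SD of 15.1 normalized counts, and all were far below DMSO. Exons of an unnamed protein-coding gene overlap MRPL2 on its strand. MRPL18 (uL18m), of the central protuberance, had 1900, 2189 and 2072 normalized counts under DMSO and 1357, 1099 and 1283 in BRL-50481 (-0.72, adjusted p = 5.82e-06 in limma). MRPL34 (bL34m, bound to ribosomal RNA) had 1293, 1572 and 1627 normalized counts under DMSO and 922, 888 and 977 in BRL-50481 (-0.68, adjusted p = 1.42e-05 in limma). Each of these genes was lower in all 3 BRL-50481 libraries and in every fit that left out a library.

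The stalk of the large subunit recruits translation factors through MRPL12 (bL12m), anchored by MRPL10 (uL10m) beside MRPL11 (uL11m) at its base. MRPL12 (chromosome 17, 81703367 to 81707517) had 2787, 3575 and 3411 normalized counts under DMSO and 1867, 1992 and 2086 in BRL-50481, a mean at 60.8% of that in DMSO (log2 fold change -0.71, standard error 0.0823, adjusted p = 8.45e-06 in limma). An unnamed gene shares exons with it on its strand. MRPL10 had 1943, 2220 and 2084 normalized counts under DMSO and 1695, 1833 and 1775 in BRL-50481 (-0.23, adjusted p = 0.0057 in limma). MRPL11 had 1215, 1579 and 1482 in DMSO and 1304, 1258 and 1176 in BRL-50481 (-0.19, adjusted p = 0.0828 in limma), and DMSO replicate 1 lay among the BRL-50481 libraries. Without that library MRPL11 was called lower (-0.30, adjusted p = 2.23e-05), and without DMSO replicate 2 it was at -0.11 (adjusted p = 0.286). The transcripts of the stalk protein and of its anchor were therefore both lower, by different amounts, and MRPL11 was called only when DMSO replicate 1 was left out.

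MRPL17, MRPL51 and MRPL2 were the most abundant MRPL transcripts by normalized count. MRPL17 (bL17m, near the exit of the peptide tunnel) had 3370, 3734 and 3610 normalized counts under DMSO and 2362, 2291 and 2454 in BRL-50481 (log2 fold change -0.59, adjusted p = 1.39e-06 in limma). MRPL51 (mL51, mitochondria-specific) had 3044, 3568 and 3333 in DMSO and 2292, 2202 and 2482 in BRL-50481 (-0.51, adjusted p = 2.44e-05 in limma). Both fell, with groups apart. Per kilobase of canonical transcript, MRPL33, chosen after its values were seen, ranked first of the members at 3935 normalized counts, followed by MRPL51 at 3141, whereas MRPL17 had 1289 and MRPL2 2202. Exons of BABAM2 overlap MRPL33 on the same strand. MRPL23 was the least abundant MRPL gene at a mean of 101 normalized counts, and 75 of the 77 members averaged at least 300.

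The 2 MRPL genes called higher, MRPL54 and MRPL40, are mitochondria-specific, although fits with the replicate block or the length and GC correction also called members with a bacterial counterpart higher, as given above. MRPL54 (mL54, chromosome 19, 3762682 to 3768575) had 428, 476 and 451 normalized counts under DMSO and 588, 603 and 664 in BRL-50481, 137% of the DMSO mean (log2 fold change 0.45, standard error 0.0812, adjusted p = 0.000353 in limma). All 3 BRL-50481 libraries were above all DMSO libraries, and the call held in each fit that left out a library. MRPL40 (mL40, chromosome 22, 19432545 to 19436075) had 578, 614 and 674 normalized counts under DMSO and 678, 718 and 764 in BRL-50481. The groups were apart by the width of a few counts, and the rise of 0.21 (standard error 0.0803, adjusted p = 0.0374 in limma) lost its call in 4 of the 6 fits with a library removed, where adjusted p reached 0.161.

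The other MRPL genes called lower were MRPL32, MRPL24, MRPL21, MRPL50, MRPL49, MRPL55, MRPL30, MRPL52, MRPL4, MRPL16, MRPL42, MRPL43, MRPL14, MRPL28, MRPL45, MRPL33, MRPL20 and MRPL9, with log2 fold changes from -0.68 (MRPL32) to -0.17 (MRPL9). MRPL27, MRPL48, MRPL46, MRPL37, MRPL13, MRPL44, MRPL47, MRPL41, MRPL57, MRPL19, MRPL53, MRPL1, MRPL22, MRPL3, MRPL39, MRPL35, MRPL15, MRPL38 and MRPL23 passed no threshold, with log2 fold changes from -0.18 (MRPL27) to 0.25 (MRPL23). With a library removed, MRPL9 kept its call in 1 of the 6 fits, MRPL28 in 3 and MRPL33 in 4. Without DMSO replicate 1, MRPL13, MRPL27, MRPL37, MRPL46, MRPL47, MRPL48 and MRPL57 were called lower as well. MRPL37 was lower in every BRL-50481 library without passing the threshold (adjusted p = 0.0857 in limma). MRPL15 and MRPL3 were higher in every one (adjusted p = 0.0522 and 0.109). MRPL38, whose groups overlapped, narrowly missed the threshold (0.22, adjusted p = 0.0503 in limma). It was called higher by DESeq2 (0.0497), with quantile normalization, median centring and the length and GC correction. The same held without DMSO replicate 2 or BRL-50481 replicate 3, but in no other fit with a library removed.

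Exons of another annotated gene overlap 18 of the 77 members on the same strand. Of these 18, 12 were lower (median log2 fold change -0.30), against 33 of the 59 members without such an overlap (-0.26). For 36 members GENCODE lists at least 1 pseudogene of the same name, with which reads could be shared. Canonical transcripts of the members had a median length of 1260 bases, against 3173 for all genes tested with a length, and a median GC content of 48.0% against 48.5%. Across the 76 members other than MRPS24, Spearman's rho of the log2 fold change with transcript length was 0.009, with GC content -0.176 and with the mean normalized count -0.354. These are descriptions across genes that share their libraries and are not independent.

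Mitochondrial ribosome proteins that carry other symbols moved the same way, and all 6 tested were lower (median log2 fold change -0.38). Among all genes tested 29.8% were lower, and the difference was not tested. DAP3, a GTP-binding protein of the small subunit, had 6910, 7327 and 7023 normalized counts under DMSO and 4941, 5217 and 5157 in BRL-50481 (-0.47, adjusted p = 2.42e-06 in limma). GADD45GIP1, of the large subunit, fell most among them, by 0.60 on the log2 scale, from 2127, 2600 and 2468 to 1589, 1506 and 1631 (adjusted p = 1.2e-05). ICT1, a peptidyl-tRNA hydrolase built into the large subunit, changed by -0.41 (adjusted p = 0.00197), AURKAIP1 by -0.35 (0.00281), CHCHD1 by -0.32 (0.00115) and PTCD3 by -0.17 (0.0105). The call of PTCD3 was lost without BRL-50481 replicate 3 (adjusted p = 0.0584). With the length and GC correction AURKAIP1 was at -0.19 (adjusted p = 0.00147) and PTCD3 at -0.27 (7.16e-06).

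Mitochondrial translation factors moved in both directions. Of 14 tested, 5 were lower and 2 higher (median log2 fold change -0.09), so their share lower, 35.7%, was near the 29.8% of all genes tested, and the difference from the members was not tested. The median was at -0.06 without DMSO replicate 2 and with median centring, and at -0.05 without BRL-50481 replicate 2 and with the length and GC correction. TUFM, the elongation factor that delivers aminoacyl-tRNA, had 5906, 6542 and 6308 normalized counts under DMSO and 4551, 4820 and 4769 in BRL-50481 (-0.41, adjusted p = 1.98e-05 in limma), and TSFM, its exchange factor, changed by -0.42 (adjusted p = 0.000357), with an overlapping annotated gene on its strand. GFM2, which acts in ribosome recycling, rose by 0.35 from 1592, 1604 and 1486 to 1987, 2030 and 1951 (adjusted p = 0.000139). MTIF2, the initiation factor, rose by 0.13 (adjusted p = 0.0369), a call lost in 5 of the 6 fits with a library removed.

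Of 26 mitochondrial ribosome assembly factors, 12 (46.2%) were lower and 2 higher (median log2 fold change -0.14). Of all genes tested, 29.8% were lower, and the difference was not tested. MPV17L2 had 711, 796 and 699 normalized counts under DMSO and 314, 343 and 295 in BRL-50481 (-1.21, adjusted p = 1.43e-07 in limma), and MTERF3 had 1740, 1870 and 1804 in DMSO and 865, 901 and 918 in BRL-50481 (-1.01, adjusted p = 2.79e-08). Both had groups that stood apart. MTG1, a GTPase that acts on the large subunit, rose from 244, 270 and 242 to 537, 543 and 530 (1.09, adjusted p = 2.85e-07 in limma), though an annotated gene shares its exons on the same strand. RPUSD4, a pseudouridine synthase, rose by 0.24 (adjusted p = 0.0184), and its call was lost in 3 of the 6 fits with a library removed. NGRN, the most abundant of the list by normalized count, fell by 0.41 on the log2 scale (adjusted p = 1.31e-05) and also shares exons with other annotated genes.

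Of 7 genes for transcription of mitochondrial DNA and stability of its messenger RNA, 6 were lower (median log2 fold change -0.57). The share of all genes tested called lower was 29.8%, and the difference was not tested. POLRMT, the mitochondrial RNA polymerase, had 1926, 2087 and 2333 normalized counts under DMSO and 1242, 1433 and 1454 in BRL-50481 (-0.62, adjusted p = 2.14e-05 in limma). MTERF1, a termination factor, changed by -0.63 (adjusted p = 0.000104), and LRPPRC, which stabilizes mitochondrial messenger RNA, by -0.28 (adjusted p = 0.000464). The transcripts of mitochondrial DNA itself were not analysed here, so the RNA that these ribosomes read was not measured.

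Nuclear regulators of mitochondrial genes were lower in 8 of 10 cases and higher in 2 (median log2 fold change -0.42). For all genes tested the shares were 29.8% lower and 28.9% higher, and the difference was not tested. MYC, at 26024, 28761 and 28138 normalized counts under DMSO and 12098, 12446 and 12330 in BRL-50481, changed by -1.17 (adjusted p = 1.63e-09 in limma), and PPARGC1B, a coactivator of mitochondrial gene expression, by -1.01 (adjusted p = 2.7e-06). GABPA, the DNA-binding chain of GABP, rose by 0.36, from 901, 784 and 789 to 1080, 1015 and 1068 normalized counts (adjusted p = 0.000875), and GABPB2, a partner chain, by 0.75 (adjusted p = 6.51e-05), from 127, 125 and 137 to 214, 228 and 215. GABPB1, the other partner chain, fell by 0.37, from 1325, 1235 and 1366 to 1100, 969 and 970 (adjusted p = 0.000567), so the chains of GABP did not move together. YY1 fell by 0.33, from 5124, 4943 and 5207 to 3984, 3982 and 4158 (adjusted p = 5.47e-05), and NRF1 by 0.28 (adjusted p = 0.00391). GABPB1, YY1 and NRF1 are named, after their values were seen, because their motifs were searched for. The list thus held changes in both directions, and their part in the change of the members was not tested.

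Cytosolic ribosomal protein genes were lower in larger shares. For the large subunit 41 of 46 were lower (median log2 fold change -0.47), and for the small subunit 31 of 31 (-0.52). The share of all genes tested was 29.8%. The medians of the MRPL (-0.23) and MRPS (-0.39) genes were nearer to 0, and the difference from the cytosolic lists was not tested. Many cytosolic ribosomal protein genes have processed pseudogenes that could take part of their reads.

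**Figure D4:**
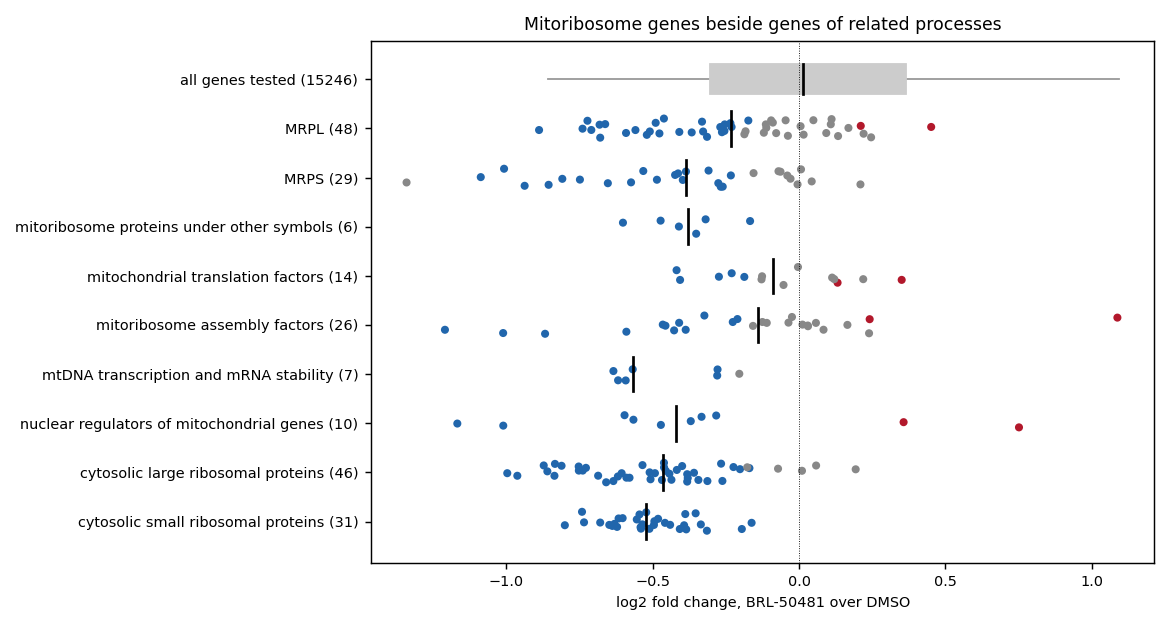
Log2 fold change of BRL-50481 over DMSO (horizontal axis) for each gene of the MRPL and MRPS groups and of related lists, with the number of genes tested in brackets and a black bar at the median. Blue points were called lower, red points higher and grey points neither, and for all genes tested the box spans the 25th to 75th percentile and the line the 5th to 95th. Medians run from -0.57 for transcription of mitochondrial DNA to -0.09 for translation factors, and those of MRPL and MRPS genes are -0.23 and -0.39, where that of all genes is 0.01.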

How the data were processed

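RNA sequencing of 6 libraries (3 DMSO, 3 BRL-50481) was analysed from 1 table. According to the Methods and the submitters' processing notes, the authors aligned single-end reads to hg38 with STAR 2.7.1a, counted them per gene and strand with HTSeq, and used DESeq2 1.28. The labels name oligo-dT selection, the series record ribosomal RNA depletion. The deposited signal is the read count over the size factor of its library (normalized count). The deposited log2 fold changes and p-values are the authors' DESeq2 results and were not used. All values are whole multiples of 1 read (within 0.01 read), so reads were recovered for count-based tests.

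Genes that reached a normalized count of 4 in 3 or more libraries (15246 of 15651) were tested with limma 3.58.1 in R 4.3.3, with a mean-variance trend, on log2(normalized count + 1), with the groups as the only term and Benjamini-Hochberg adjustment over all genes. The procedure was tested on simulated data. The p-values measure the spread between these libraries, described as biological replicates in the series record. Deviations from group means of same-numbered libraries correlated at 0.156, 0.11 and 0.101 over genes with a mean of at least 100. Differently numbered libraries correlated at -0.191 to 0.09, so the margin was small. No label states a pairing, and whether the numbers pair the samples is not known. The main fit did not use a pairing, and a fit with the replicate number as a block was run as an alternative.

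Genes named are, within MRPL and MRPS, the 5 largest called changes in each direction among members averaging 100 normalized counts or more, the 3 highest means, members that fail the filter (0 did), the MRPS18 family, MRPS30, MRPS36, MRPL12, MRPL10 and MRPL11. In each further list they are the 2 largest called changes in each direction and the highest mean, and all mitoribosome proteins under other symbols. The remaining members are listed to account for them. Members and lists were chosen with earlier results of these data known. Positions, transcript lengths and overlaps are from GENCODE on hg38 and promoters from RefSeq. Alternatives were pseudocounts of 0.5 and 4, other filters, median centring, quantile normalization, no trend in limma, edgeR 4.0.16, DESeq2 1.42.0, a replicate block, a loess correction (span 0.5) for length and GC content, and leaving out each library.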

Additional observations from a re-analysis of the deposited data

How the results depend on the processing

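Pseudocounts of 0.5 and 4 and removing the filter left the member counts at 45 lower and 2 higher, edgeR also gave 45 and 2, and DESeq2 45 and 3. The MRPL genes higher numbered 6 with quantile normalization, 5 with median centring, 1 in limma without a trend, 4 with the replicate block, 6 with the length and GC correction and 7 with the correction and the replicate block together. The MRPS genes higher were 2 with the correction, with or without the block. With the block, MRPL15 and MRPL38 gained a call, which put 1 member with a bacterial counterpart and 3 mitochondria-specific members higher, and the marker EPCAM lost its call, while no other call of a gene named here changed. Leaving out each library gave 1 to 4 MRPL and 0 to 1 MRPS genes higher. It also gave 3 to 5 translation factors lower and 1 to 3 higher, 1 to 3 assembly factors higher, and median log2 fold changes of -0.10 to -0.05 for translation factors, -0.47 to -0.31 for mitoribosome proteins under other symbols, -0.58 to -0.54 for transcription of mitochondrial DNA and -0.45 to -0.40 for nuclear regulators. Translation factors lower were 3 with quantile normalization and 3 without a trend, and 1 was higher by DESeq2. Assembly factors higher were 4 with median centring and 4 with the correction, with or without the block.

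For the lists, quantile normalization, median centring and the correction, the last with or without the block, gave medians of -0.53, -0.54 and -0.53 for transcription of mitochondrial DNA and -0.37, -0.39 and -0.46 for nuclear regulators. The correction gave -0.30 for mitoribosome proteins under other symbols and -0.43 for cytosolic small subunit proteins, and quantile normalization called 1 cytosolic large subunit gene higher. Of the members named, those with log2 fold changes near 0 turned positive without being called. MRPS10 was at 0.0405 with quantile normalization, 0.0251 with median centring and 0.0228 with the correction, and between -0.0224 and 0.0157 when a library was left out. MRPS18B was at 0.0252, 0.0011 and 0.03 under the same settings, and between -0.0742 and 0.0077 when a library was left out. MRPS18C was at 0.0006 with the correction, and between -0.115 and 0.0089 when a library was left out. The correction gave these values with and without the replicate block. Among values of single named genes, 793 kept direction and side of the threshold, 18 lost and 2 gained their call, and 15 changed sign. The cause was not tested.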
